A study of Mus musculus with 6 samples.

Results

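The genes of Wnt signalling were followed in embryonic mouse neocortex after forced expression of Insm1. They are ligands, receptors, R-spondins, inhibitors, cytoplasmic transducers and nuclear factors. Their symbols match the family names Wnt, Fzd, Ror, Rspo, Sfrp, Dkk, Dvl, Axin and Nkd, or are on a list of single genes. That list holds Lrp5, Lrp6, Ryk, Lgr4 to Lgr6, Wif1, Notum, Rnf43, Znrf3, Apcdd1, Tcf7, Tcf7l1, Tcf7l2, Lef1 and Sp5. By that rule 66 of 22001 genes were members, and 45 of the 66 had enough counts to be tested, among 13560 tested genes in all. Embryos were electroporated in utero at E13.5, a procedure that drives plasmid DNA into cells lining the brain ventricle, and cells were collected 24 h later at E14.5. All cells are labelled mCherry+; the way they were isolated is not stated in the labels. The 3 control libraries came from cells given a plasmid for mCherry alone, and the 3 Insm1-overexpressing libraries from cells given a plasmid encoding Insm1 and mCherry. The labels name no strain, sex or promoter, and nothing says that libraries came from separate litters, so p-values rest on a spread between libraries that may be technical.

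Wnt ligands are secreted lipid-modified proteins that bind frizzled receptors together with Lrp5 or Lrp6, or with the kinase-like receptors Ror1, Ror2 and Ryk. In the canonical branch the signal passes through dishevelled (Dvl) proteins and stops Axin and its partners from destroying beta-catenin, which then joins Tcf and Lef factors on target genes. R-spondins strengthen the signal by binding Lgr receptors and removing the ubiquitin ligases Rnf43 and Znrf3, which otherwise clear frizzleds from the membrane. In the embryonic cortex the hem, a strip at its medial edge, is a source of Wnt ligands, and the pathway is known for sustaining progenitor division and later for roles in neurogenesis and axon growth.

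Insm1 itself was at 222, 331 and 371 CPM (the count scaled to library size, after TMM, a method that evens out library composition) in controls 1, 2 and 3 and at 1570, 2173 and 1436 CPM in the Insm1 libraries 1, 2 and 3, with no overlap. It rose by a log2 fold change of 2.49 (adjusted p = 0.0122, edgeR's quasi-likelihood test with Benjamini-Hochberg adjustment), and the exact two-sided permutation test gave p = 0.1, the smallest that 3 against 3 allows. Library totals lay between 30017645 and 31645135 counts. Control 2 stood apart from controls 1 and 3 in markers of other cell types. Its summed CPM of 8 erythroid genes was 5495, while controls 1 and 3 had 754 and 325 and the Insm1 libraries 3798 to 5150. Its 8 microglial genes summed to 75.5 CPM, against 1.33 and 9.01 in the other controls and 11.2 to 39.5 with Insm1. Cells carrying the labels' neocortical identity were present in both groups. Summed CPM of 10 apical progenitor markers lay from 3100 to 3595 in the control libraries and from 2342 to 2851 with Insm1. That of 12 projection neuron markers lay from 6387 to 6718 and from 7390 to 8071. Single projection neuron markers differed, with positive fold changes in 7 and negative in 5. EdgeR called 4 of them higher and 1 lower, where 1.23% and 2.12% of all tested genes were. The lower one was Mef2c (log2 fold change -1.89, adjusted p = 0.00317), and Mapt and Stmn2 also lay wholly below the controls.

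Among the 45 tested members, edgeR called 4 lower and none higher with Insm1, at a Benjamini-Hochberg adjusted p below 0.05 over all tested genes. Over all tested genes 2.12% were called lower, a smaller share than 4 of 45, and 1.23% higher. The 4 were the R-spondin Rspo3, the Dickkopf family member Dkk3, the frizzled receptor Fzd9 and the beta-catenin partner Tcf7l2. At an unadjusted p below 0.05 stood 13 members, 11 lower and 2 higher, the latter Wnt7b and Apcdd1. Of all 13560 tested genes 2339 stood there, a share to set beside each unadjusted edgeR count below. The fold change was negative in 35 members and positive in 10, with a median log2 fold change of -0.29, where over all tested genes 51.9% were negative and the median was -0.0086. The 3 Insm1 libraries all lay below the 3 controls in 12 members and all above in 2, where over all tested genes 11.8% lay wholly below and 10.4% wholly above. DESeq2 called 8 members lower and none higher, against 4.37% and 3.13% of tested genes. These were the 4 named and Fzd8, Sfrp1, Tcf7l1 and Wnt7a. Limma on log2(TPM + 1) called none of the members and 60 of 13462 genes in all. It had 11 members at an unadjusted p below 0.05, beside 2238 of all genes. These shares over all genes are the ones to set beside the calls in each class and list below. DESeq2 gave no adjusted p for Fzd10, Rnf43, Sp5 and Wif1. The number of calls changed when a library was left out, for the members and for all genes alike. Without control 3 or Insm1 library 3 edgeR called 0 of the 45 (10 and 13 at an unadjusted p below 0.05) and 116 and 218 of all genes, where the full fit called 454. It called 1 member without control 1 and 1 without Insm1 library 2, beside 234 and 194 of all genes. Without Insm1 library 1 it called 3 members and 370 of all genes, and without control 2 it called 7 and 645. Where all 4 calls were lost without control 3, the log2 fold changes were -1.79 for Rspo3, -1.10 for Dkk3, -0.85 for Fzd9 and -0.78 for Tcf7l2.

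**Figure D1:**
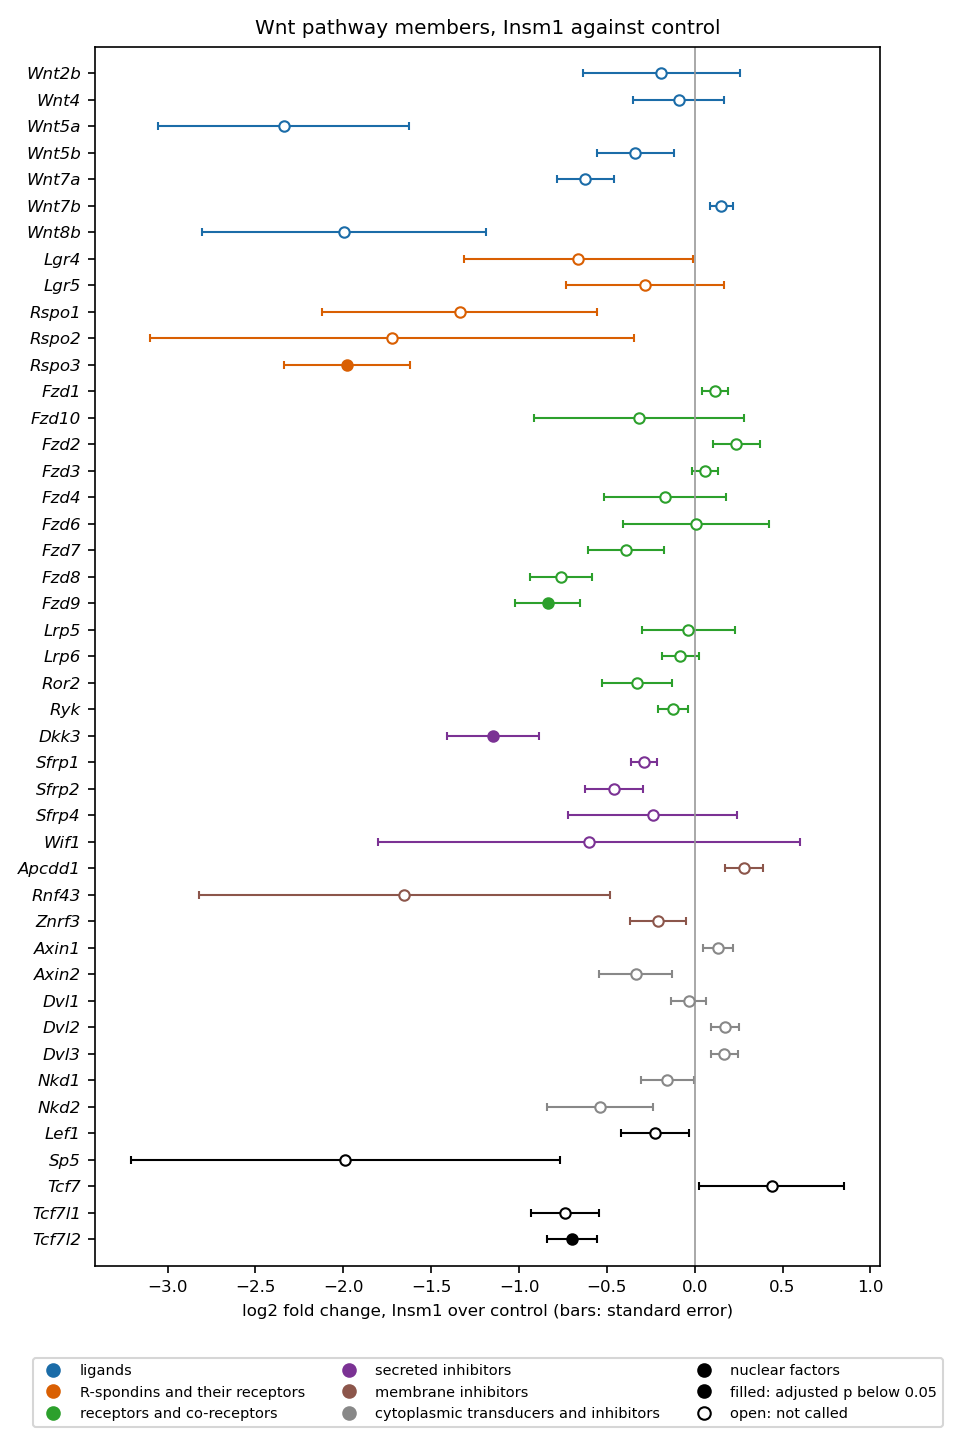
Log2 fold change of Insm1 over control for each of the 45 tested Wnt members, with its standard error, grouped and coloured by role; filled points passed an adjusted p of 0.05. Rspo3, Fzd9, Dkk3 and Tcf7l2 are filled and lie left of 0, as do 31 open points, and 10 open points lie right of it.

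To compare genes with one another, CPM was divided by the length in kb of all annotated exons of a gene. On that scale the secreted frizzled-related protein Sfrp1 was the most abundant member, at 146 ± 7.89 CPM per kb in controls and 120 ± 10.4 with Insm1 (SD, n = 3). Wnt7b followed at 84.7 ± 3.61 and 94.1 ± 5.94 CPM per kb (SD, n = 3). The receptors Fzd1, at 45.9 ± 4.36 in controls, and Fzd2, at 38.9 ± 8.14, came next. Fzd1 was the higher in each control, and the difference between them was not tested. Axin1 (28.5 CPM per kb) and Ryk (25.4) came after them in the controls. At the other end, Rnf43, Lgr5, Fzd10 and Wif1 had means of at most 0.156 CPM per kb in either group.

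**Figure D2:**
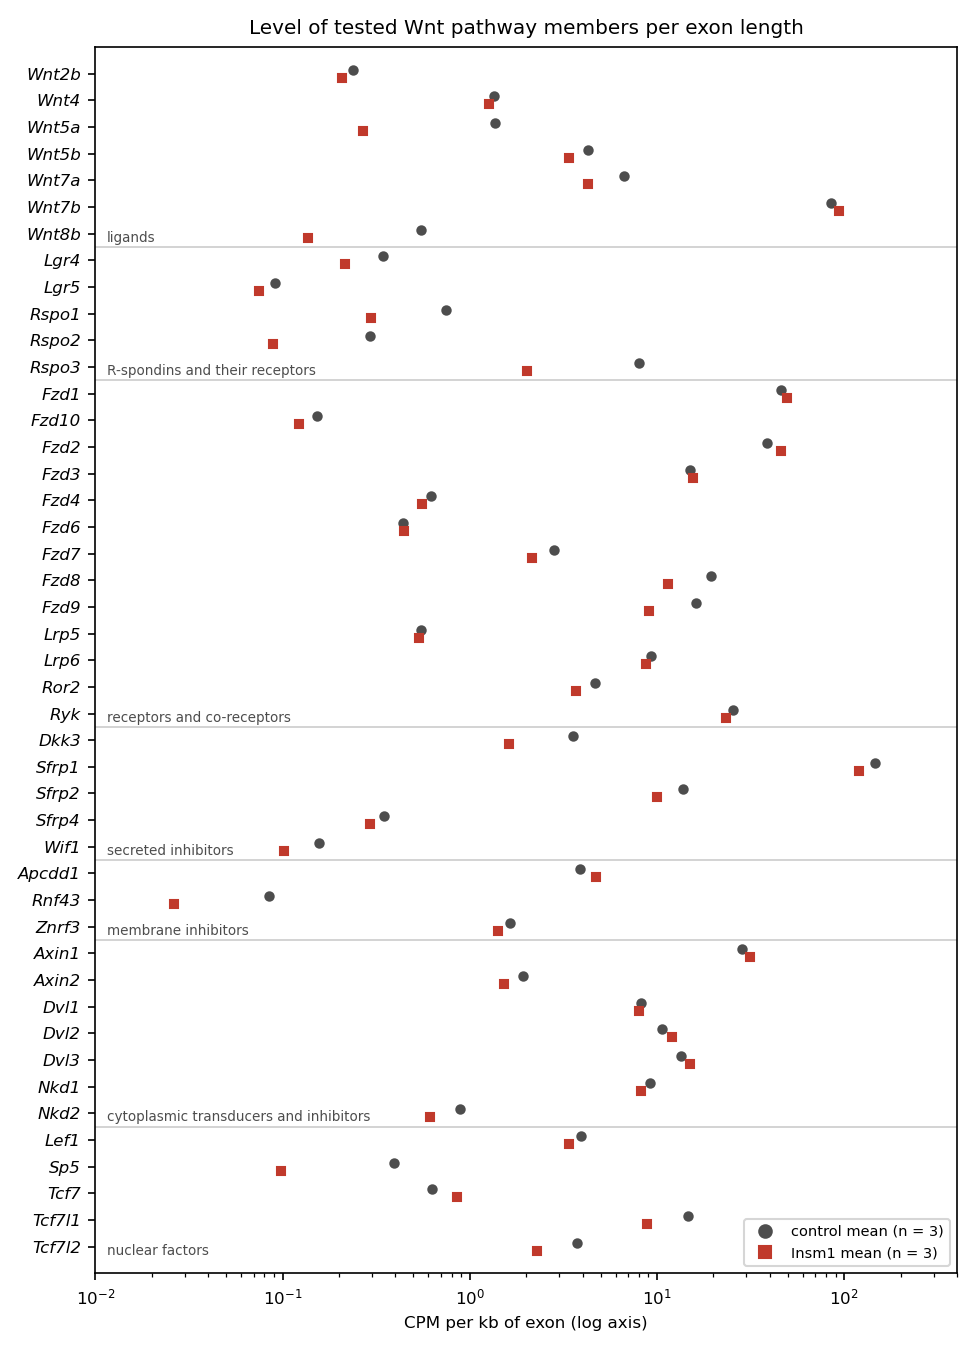
Mean level per exon length of the 45 tested members in controls (circles) and with Insm1 (squares), in CPM per kb of exon on a log axis, grouped by role. Sfrp1 lies furthest right at 146 and 120 CPM per kb, and Rnf43 furthest left at 0.0842 and 0.0264.

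Of the 19 ligands 7 were tested. None was called by edgeR, 4 stood at an unadjusted p below 0.05, DESeq2 called Wnt7a alone and limma none. Wnt7b supplied 85.1 ± 0.621% of the summed ligand level per exon length in the controls and 90.6 ± 1.52% with Insm1 (SD, n = 3). Wnt7b, known in the cortex mainly from young neurons, was at 430, 395 and 419 CPM in controls 1, 2 and 3 and at 427, 481 and 474 CPM in Insm1 libraries 1, 2 and 3. Insm1 library 1 lay inside the control range and the other two above it. The groups differed by a log2 fold change of 0.15 (standard error 0.06, adjusted p = 0.26, edgeR).

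Wnt7a, the close relative of Wnt7b that is known from ventricular zone progenitors, lay on the other side. It was at 18.6, 19.4 and 25.0 CPM in the controls and at 14.0, 15.1 and 11.7 CPM in the Insm1 libraries, with no overlap. EdgeR gave a log2 fold change of -0.62 (standard error 0.16, adjusted p = 0.0755), and DESeq2 called it lower (adjusted p = 0.0118). The difference between Wnt7a and Wnt7b in their response was not tested.

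Wnt5a and Wnt8b, ligands known from the medial cortex and hem, had the largest ratio of highest to lowest control among the 7 tested ligands. Wnt5a was at 16.3, 3.38 and 12.3 CPM in controls 1, 2 and 3 and at 1.94, 3.66 and 0.711 CPM in Insm1 libraries 1, 2 and 3, so control 2 lay within the range of the Insm1 libraries. Wnt8b was at 3.24, 0.292 and 2.19 CPM and at 0.194, 0.810 and 0.420 CPM, with control 2 again among them. The log2 fold changes were -2.34 and -2.00, with adjusted p of 0.145 and 0.24 in edgeR. Without control 2 both were called lower, Wnt5a at -2.77 (adjusted p = 0.0137) and Wnt8b at -2.51 (0.0382). With any other library left out neither was called (0.123 to 0.319 for Wnt5a and 0.25 to 0.534 for Wnt8b). Wnt2b, Wnt4 and Wnt5b had log2 fold changes of -0.19, -0.09 and -0.34 and were not called. The other 12 ligands, Wnt1, Wnt2, Wnt3, Wnt3a, Wnt6, Wnt8a, Wnt9a, Wnt9b, Wnt10a, Wnt10b, Wnt11 and Wnt16, had too few counts to be tested. Wnt3a, another ligand of the hem, had 37 of its 53 counts in control 1.

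Among the R-spondins and their receptors 5 of 7 were tested, and Rspo3 alone was called. Rspo3 (ENSMUSG00000019880) encodes a secreted R-spondin made in the hem. It lies on chromosome 10, 29452416 to 29535867, minus strand, on GRCm38. It was at 32.0, 11.6 and 30.6 CPM in controls 1, 2 and 3 and at 5.59, 5.45 and 7.79 CPM in the Insm1 libraries. The groups did not overlap, but control 2 lay nearer to the Insm1 libraries than to the other controls. Rspo3 fell 3.94-fold (log2 fold change -1.98, standard error 0.36, adjusted p = 0.0215, edgeR). Without control 2 the call was kept (adjusted p = 0.000325), and with any other library left out it was not (0.0661 to 0.107); the log2 fold change stayed negative in each of the 6, from -2.31 to -1.74.

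Rspo1 was at 2.49, 0.292 and 1.57 CPM in the controls and at 0.226, 1.07 and 0.420 CPM with Insm1. Rspo2 had no count in control 2. The groups overlapped in both genes. Neither was called by edgeR (adjusted p = 0.449 and 0.613), nor in any fit without a single library (lowest adjusted p 0.153 and 0.176). Of the receptors that bind R-spondins, Lgr4 was at 1.65, 0.584 and 3.82 CPM in controls and 0.937, 2.11 and 0.776 CPM with Insm1 (adjusted p = 0.693). Lgr5 stayed between 0.648 and 1.04 CPM in all 6 libraries, with the Insm1 libraries below the controls by little (adjusted p = 0.83). Lgr6 and Rspo4 had too few counts to be tested.

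The 9 members in which control 2 lay more than 2-fold below the mean of the other controls were Rspo2, Sp5, Wnt8b, Wif1, Rspo1, Rnf43, Wnt5a, Lgr4 and Rspo3, and in no member did it lie more than 2-fold above. Over all tested genes 3.97% lay that far below and 2.27% that far above, after adding 0.1 CPM to each side. Of the 9, all but Wnt5a and Rspo3 were at most 3.82 CPM in every control, and the share over all genes is not matched for level. Summed markers of medial cell types were also lowest in control 2 among the controls, but single markers differed. The 7 hem markers that are not members summed to 6.38, 2.99 and 5.91 CPM in controls 1, 2 and 3 and to 1.52 to 2.78 CPM with Insm1. Of these, 4 were tested, and edgeR and DESeq2 each called 0, edgeR with 0 at an unadjusted p below 0.05. DESeq2 gave no adjusted p for Bmp4 and Msx1, so it could not call them. The hem marker Gdf7 was near 0, at means of 0.0216 CPM in controls and 0.0108 with Insm1. Bmp4 and Msx2 were instead highest in control 2 among the controls, at 0.617 and 0.389 CPM. Bmp4 had a log2 fold change of -0.11. The 9 markers of Cajal-Retzius neurons, which leave the hem and other cortical borders for the surface, summed to 215, 74.9 and 187 CPM in the controls and to 92.0 to 125 CPM with Insm1. Of 8 tested, edgeR called 0 (3 had an unadjusted p below 0.05) and DESeq2 2, both lower. For both lists the shares over all tested genes were 2.12% called lower by edgeR and 4.37% by DESeq2. In edgeR 2339 of all 13560 genes had an unadjusted p below 0.05. Their defining gene Trp73 was at 15.4, 0.0649 and 14.46 CPM in controls and at 2.72, 2.43 and 1.75 CPM with Insm1. The fold change was negative in 7 of the 8 and positive in Nhlh2 (log2 fold change 0.32, adjusted p = 0.566, edgeR). Nhlh2 was at 72.2, 38.1 and 51.15 CPM in controls and at 70.6, 76.85 and 53.65 CPM with Insm1. The part of these cells in the Rspo3, Wnt5a and Wnt8b values was not tested. In bulk RNA fewer cells of a type and less RNA per cell cannot be told apart.

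**Figure D3:**
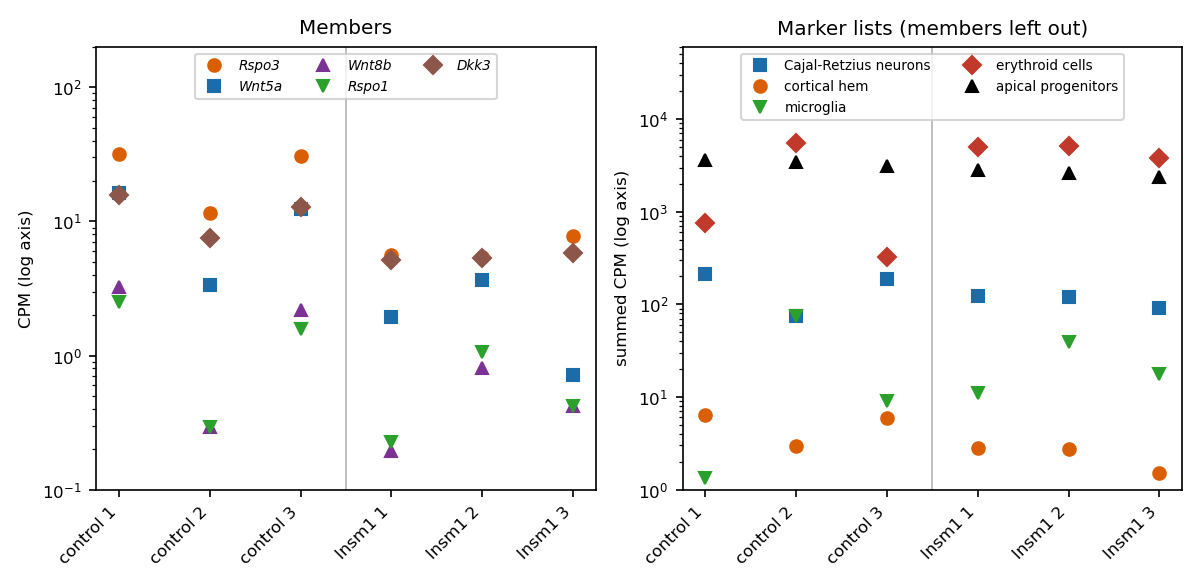
Level in each library, on log axes, of 5 members (left, CPM) and of 5 marker lists with members left out (right, summed CPM); the vertical line separates controls from Insm1 libraries. Control 2 lies below controls 1 and 3 for Rspo3, Wnt5a, Wnt8b, Rspo1 and Dkk3 and for the hem and Cajal-Retzius lists, and above them for erythroid and microglial genes, at 5495 and 75.5 summed CPM.

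Among receptors and co-receptors 13 of 15 were tested, and Fzd9 alone was called. Fzd9 (ENSMUSG00000049551), a frizzled gene on chromosome 5 (135248938 to 135251230, minus strand, GRCm38), was at 43.7, 31.3 and 36.2 CPM in controls 1, 2 and 3 and at 21.7, 25.2 and 15.3 CPM in the Insm1 libraries. All Insm1 values lay below the lowest control, and control 2 was the lowest control. Fzd9 fell 1.79-fold (log2 fold change -0.84, standard error 0.19, adjusted p = 0.0403, edgeR). The call was kept without control 2 or Insm1 library 2, and lost without each other library (adjusted p from 0.0907 to 0.133).

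Fzd8, a frizzled of cortical progenitors, just missed the threshold in edgeR. It was at 94.9, 139 and 113 CPM in the controls and at 86.2, 61.4 and 57.3 CPM with Insm1, with no overlap and with control 2 the highest of all. EdgeR gave a log2 fold change of -0.76 (standard error 0.18, adjusted p = 0.0556). It was called lower by DESeq2 (0.000111) and by edgeR without Insm1 library 1 (0.0196) or control 1 (0.0494). Without each other library edgeR did not call it (0.0709 to 0.179).

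The abundant frizzleds Fzd1, Fzd2 and Fzd3 had positive fold changes and were not called. Fzd1 was at 175, 212 and 191 CPM in controls and 211, 210 and 203 CPM with Insm1, a log2 fold change of 0.11. Fzd2 was at 125, 177 and 125 CPM in the controls and at 185, 159 and 159 CPM with Insm1, so control 2 lay inside the Insm1 range and the adjusted p was 0.427. Without control 2 Fzd2 was called higher, at a log2 fold change of 0.42 (adjusted p = 0.0238), and without any other library it was not (0.481 to 0.749). Fzd8 and Fzd9 made up 10.8 ± 1.26% and 9.13 ± 2.16% of the summed receptor level per exon length in the controls and 6.66 ± 1.26% and 5.26 ± 1.07% with Insm1 (SD, n = 3). The co-receptor Lrp6 had a log2 fold change of -0.08, Lrp5 of -0.04, Ryk of -0.12 and Ror2 of -0.33, and Fzd4, Fzd6, Fzd7 and Fzd10 lay between -0.39 and 0.0072. Fzd5 and Ror1 had too few counts to be tested.

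**Figure D4:**
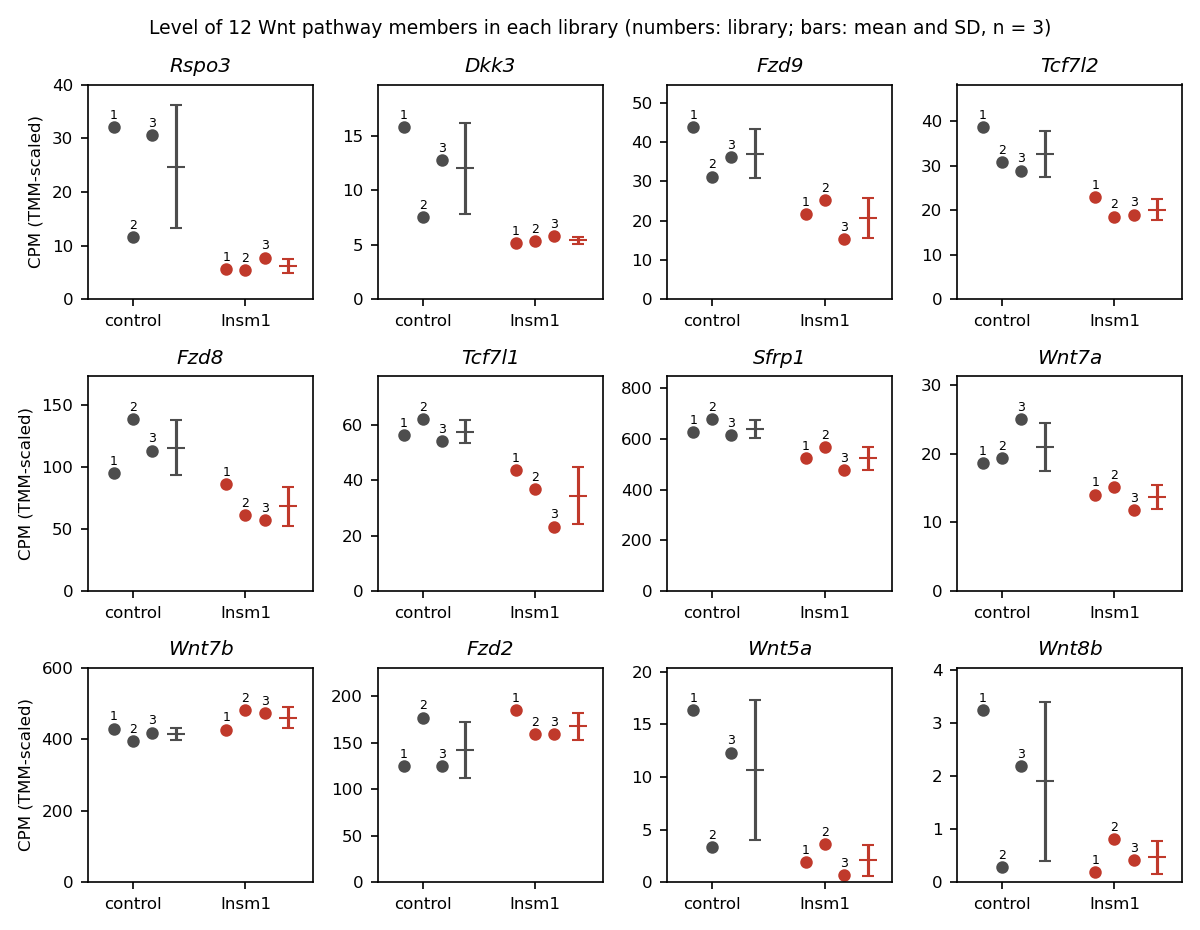
CPM of 12 members in each library, with the library number above each point and the group mean and SD (n = 3) beside the points; each axis starts at 0. The Insm1 points of Rspo3, Dkk3, Fzd9, Tcf7l2, Fzd8, Tcf7l1, Sfrp1 and Wnt7a all lie below the control points, while in Wnt7b, Fzd2, Wnt5a and Wnt8b the groups overlap.

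All 5 tested secreted inhibitors, of 10, had negative fold changes, and Dkk3 was called. Dkk3 (ENSMUSG00000030772) is the divergent member of the Dickkopf family, and its action on Wnt signalling is less settled than that of Dkk1. It lies on chromosome 7, 112116017 to 112159057, minus strand, on GRCm38. It was at 15.8, 7.53 and 12.8 CPM in controls 1, 2 and 3 and at 5.14, 5.35 and 5.79 CPM with Insm1. The Insm1 libraries lay close together below every control, and control 2 was the lowest control. Dkk3 fell 2.22-fold (log2 fold change -1.15, standard error 0.26, adjusted p = 0.0429, edgeR). Without control 2 it was called (0.00454), and without any other library it was not (0.108 to 0.169).

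Sfrp1, which binds Wnt ligands outside the cell and is made by cortical progenitors, was at 626, 679 and 614 CPM in controls and at 524, 569 and 477 CPM with Insm1. The groups did not overlap, and the difference was small (log2 fold change -0.29, standard error 0.07, adjusted p = 0.0644 in edgeR and 0.00689 in DESeq2). Sfrp2, a relative known from the lateral edge of the cortex called the antihem, was at 30.6, 29.99 and 28.3 CPM in controls and at 24.1, 24.8 and 15.8 CPM with Insm1 (adjusted p = 0.179). Of the other antihem markers 3 of 5 were tested and 2 fell, the epidermal growth factor ligand Tgfa (log2 fold change -0.80, adjusted p = 0.0477) and the neuregulin Nrg3 (-1.66, 0.00793). Over all tested genes 2.12% were called lower. The third, Nrg1, was at means of 16.7 CPM in controls and 15.8 CPM with Insm1 and was not called (-0.08, 0.849). With single libraries left out Nrg3 was called in 6 of 6 fits and Tgfa in 0. The summed level of the 5 antihem markers was 32.4 to 37.9 CPM in controls and 22.5 to 25.2 CPM with Insm1. Their part in the Sfrp2 values was not tested. Sfrp4 and Wif1 were at or under 2.09 CPM in every library and not called. Dkk1, Dkk2, Dkk4, Sfrp5 and Notum had too few counts to be tested.

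Of the 3 membrane inhibitors none was called by edgeR, DESeq2 or limma, and Apcdd1 alone had an unadjusted p below 0.05. DESeq2 gave no adjusted p for Rnf43. Apcdd1, which binds Wnt and Lrp proteins at the membrane and is itself induced by the pathway, was at 54.4, 49.6 and 46.6 CPM in the controls and at 53.3, 67.5 and 62.0 CPM with Insm1, with Insm1 library 1 inside the control range (log2 fold change 0.28, adjusted p = 0.213). The ubiquitin ligase gene Znrf3 was at 14.4, 12.0 and 12.2 CPM in the controls and at 11.8, 11.6 and 10.1 CPM with Insm1. Its groups did not overlap, but the gap between the highest Insm1 library and the lowest control was small (log2 fold change -0.21, adjusted p = 0.576). Its relative Rnf43 was at 1.07 CPM or less in all libraries.

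The 7 cytoplasmic members were all tested, and edgeR, DESeq2 and limma each called 0, edgeR with 0 at an unadjusted p below 0.05. The dishevelled genes Dvl2 and Dvl3 lay wholly above the controls by little. Dvl2 went from 66.8 ± 2.90 to 75.3 ± 3.06 CPM and Dvl3 from 85.9 ± 3.92 to 96.6 ± 5.86 CPM (SD, n = 3; adjusted p = 0.302 and 0.303 in edgeR). Dvl1 was at 41.1 ± 1.49 and 40.1 ± 3.26 CPM (SD, n = 3). Exons of Dvl1 and Dvl2 overlap Tas1r3 and Acadvl on the other strand, and the library protocol in the labels names no step that marks strand. The scaffold Axin1 was at 109 ± 3.68 and 120 ± 12.7 CPM (SD, n = 3), and the Dvl-binding inhibitor Nkd1 at 41.6 ± 2.19 and 37.3 ± 8.70 CPM (SD, n = 3). Its relative Nkd2 had a log2 fold change of -0.54 (adjusted p = 0.42, edgeR).

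Of the 5 nuclear members Tcf7l2 was called. Tcf7l2 (ENSMUSG00000024985), a DNA-binding partner of beta-catenin on chromosome 19 (55741820 to 55933654, plus strand, GRCm38), was at 38.6, 30.7 and 28.9 CPM in controls 1, 2 and 3 and at 22.9, 18.6 and 19.0 CPM in the Insm1 libraries. Every Insm1 library lay below every control. Tcf7l2 fell 1.62-fold (log2 fold change -0.70, standard error 0.14, adjusted p = 0.0289, edgeR). The call was kept without control 2 or Insm1 library 1, and lost without each of the others (0.0629 to 0.104).

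Tcf7l1, a family member known mainly as a repressor of targets, was more abundant per exon length, at 14.7 against 3.73 CPM per kb for Tcf7l2 in the controls. It was at 56.3, 62.1 and 54.2 CPM in the controls and at 43.5, 36.7 and 23.2 CPM with Insm1, with no overlap. EdgeR gave a log2 fold change of -0.74 (standard error 0.19, adjusted p = 0.0799). Tcf7l1 was called by DESeq2 (0.00195) and by edgeR without Insm1 library 1 (0.0364), but not without any other library (0.076 to 0.192). Its exons overlap Gm15401 on the other strand. The sums of the apical progenitor list were also lower with Insm1, without overlap. Of its 10 genes 4 were called lower, where 2.12% of all tested genes were. The groups lay wholly apart in 7, where 11.8% of all tested genes lay wholly below. In Pax6, Hes5 and Glul they overlapped, at log2 fold changes of -0.10, -0.11 and 0.0022. The part of this list in the Fzd8, Fzd9, Tcf7l1, Tcf7l2 and Sfrp1 values was not tested.

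Lef1 and Tcf7, the family members that are also targets of the pathway, overlapped between the groups. Lef1 was at 43.2, 25.6 and 35.0 CPM in the controls and at 34.6, 30.05 and 24.1 CPM with Insm1 (log2 fold change -0.23, adjusted p = 0.636). Tcf7 was at 1.65 ± 0.714 and 2.23 ± 0.475 CPM (SD, n = 3). Sp5, a zinc-finger gene induced directly by Wnt signalling, was at 0.777 and 1.70 CPM in controls 1 and 3, had no count in control 2 and was at 0.162, 0.0324 and 0.420 CPM with Insm1 (adjusted p = 0.479). A count of 0 in control 2 allows up to 0.0974 CPM, which is 3 counts and covers counting error only.

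Members commonly used as readouts of canonical signalling were taken as one group of 10: Axin2, Lef1, Tcf7, Sp5, Nkd1, Notum, Rnf43, Znrf3, Apcdd1 and Lgr5. Of 9 tested, edgeR, DESeq2 and limma each called 0, and 1 (Apcdd1) had an unadjusted p below 0.05 in edgeR. Over all tested genes edgeR called 2.12% lower and 1.23% higher, DESeq2 4.37% and 3.13%, and limma on log2(TPM + 1) 60 of 13462. With shares this small, 0 calls among 9 genes cannot tell this group from the rest. Tcf7, Sp5, Rnf43 and Lgr5 were also at most 2.78 CPM in any library. DESeq2 gave no adjusted p for Rnf43 and Sp5. The fold change was negative in 7 and positive in 2, with a median log2 fold change of -0.23. Axin2, the most widely used of them, was at 8.03, 10.7 and 12.8 CPM in the controls and at 8.50, 9.17 and 7.37 CPM with Insm1. Control 1 lay inside the Insm1 range, and edgeR gave a log2 fold change of -0.34 (standard error 0.21, adjusted p = 0.481).

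To show the letters that Tcf and Lef factors recognise beside these values, the RefSeq promoter table (GRCm38.p6) was searched for the core CTTTGA on either strand in the 250 bases before each start. The table has 54 windows for 45 of the 66 members, and 7 of the 54 hold the core, where 13.8% of all 32851 windows do. Sp5 is shown as a target gene with a pair of matches, which start 204 and 104 bases before its start site. A window of Lef1 (180 and 120 bases) and that of Dkk1 (174 and 117 bases) also hold 2 each. The Lef1 window is chr3:131156044-131156293, which lies inside the gene, and the other Lef1 windows hold 0. In the Dkk1 window 169 of the 250 bases lie in annotated exons of Dkk1. Tcf7l2 is shown as the called nuclear factor, with none in the window shown. Matches are in capitals, and a match is a description of letters and not of binding. The Sp5 window is chr2:70474673-70474922 and the Tcf7l2 window chr19:55741560-55741809, both on the plus strand.
Sp5: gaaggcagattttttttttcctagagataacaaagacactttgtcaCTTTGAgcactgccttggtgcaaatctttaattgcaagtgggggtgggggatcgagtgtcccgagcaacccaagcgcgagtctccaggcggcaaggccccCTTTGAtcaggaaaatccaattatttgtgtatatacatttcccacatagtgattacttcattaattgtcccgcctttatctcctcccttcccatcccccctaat
Tcf7l2: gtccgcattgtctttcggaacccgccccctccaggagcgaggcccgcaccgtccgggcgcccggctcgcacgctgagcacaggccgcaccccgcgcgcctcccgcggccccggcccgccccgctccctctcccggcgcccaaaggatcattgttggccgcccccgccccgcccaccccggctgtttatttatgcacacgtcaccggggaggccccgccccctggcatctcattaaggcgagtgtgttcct

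Of the 21 members that were not tested, 7 had no count in any library: Rspo4, Wnt2, Wnt6, Wnt8a, Wnt9b, Wnt10b and Wnt11. A count of 0 allows up to 0.0970 to 0.0979 CPM in a library. The other 14 had at most 53 counts over the 6 libraries together and at most 1.20 CPM in any of them.

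Genes of the pathway outside the members were taken from 6 lists with 108 genes, of which 96 were tested. EdgeR called 4 higher and 3 lower, and the median log2 fold change was -0.0033. Over all tested genes 1.23% were called higher and 2.12% lower, the shares to set beside each list below. Beta-catenin (Ctnnb1), whose exons overlap Ulk4 on the other strand, was at 697 ± 38.1 and 708 ± 49.0 CPM (SD, n = 3). In its destruction complex 1 of 17 rose, Apc2, the neural relative of the tumour suppressor Apc, at a log2 fold change of 0.41 (adjusted p = 0.0149), and Apc2 overlaps 2310011J03Rik on the other strand. Among 16 planar cell polarity genes 2 rose and 1 fell. The large cadherins Celsr2 and Celsr3 rose at log2 fold changes of 0.40 and 0.52 (adjusted p = 0.0151 and 0.0111). The formin Daam2, which binds dishevelled, fell from 3.76 ± 0.630 to 0.938 ± 0.421 CPM (SD, n = 3; adjusted p = 0.0305).

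Among 18 tested genes often named as Wnt targets in other settings, 1 rose and 2 fell. Tnfrsf19, a receptor of the tumour necrosis factor family, was at 107, 59.7 and 100 CPM in the controls and at 38.8, 43.1 and 33.2 CPM with Insm1 (log2 fold change -1.22, adjusted p = 0.0166). Sox9, a factor of neural stem cells, fell from 303 ± 25.4 to 192 ± 39.7 CPM (SD, n = 3; adjusted p = 0.0393), and the cortical factor Lhx2 rose from 727 ± 68.6 to 920 ± 73.0 CPM (SD, n = 3; adjusted p = 0.0498). EdgeR called 0 of 19 nuclear cofactors, 0 of 9 genes of ligand maturation and 0 of 17 other surface regulators, with 4, 2 and 3 at an unadjusted p below 0.05. DESeq2 called 1, 1 and 2 of them and limma 0. Their most abundant genes were Smarca4, Gpc1 and Cpe, at log2 fold changes of 0.17, 0.06 and 0.22. With single libraries left out, Celsr3 was called in 5 of the 6 fits, Celsr2 and Sox9 in 3, Apc2 and Tnfrsf19 in 2, and Daam2 and Lhx2 in 1. Without control 3 edgeR called 0 of the 96, with 19 at an unadjusted p below 0.05.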

How the data were processed

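RNA-seq was made from mCherry+ cells of 3 control and 3 Insm1 libraries. Per the submitters' processing notes the tools were bcl2fastq, TopHat2 2.0.13 and Bowtie, with GRCm38 as the build. How reads were counted, with which strand setting and gene models, is not given in the sources used here. Whole-number counts per Ensembl gene were deposited. The authors also deposited TPM values: of 10349 genes above 5 CPM in control 1, 95.5% have a TPM whose length is the genomic span of the gene in GENCODE M21 to within 1%, so levels of different genes were compared per exon length instead.

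Counts were filtered by filterByExpr, scaled by TMM and fitted with edgeR 4.0.16 (R 4.3.3, robust quasi-likelihood, group alone, two-sided) over 13560 genes. Standard errors come from the F statistic. The fit was tested on simulated data. No list was tested as a list. Alternatives were RLE scaling, DESeq2 1.42.0, no filter on low counts, a minimum of 5 CPM in 3 libraries, leaving out each library in turn, blocking on the replicate number, and limma 3.58.1 on TPM after a log2 transform with 1 or 0.1 added.

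Members and lists were chosen with earlier results of these data known. Named are called members, members with an unadjusted p below 0.05, the 3 of highest deposited TPM in each role (a rule that keeps the span-based length), and up to 4 called genes (or the most abundant) of each other pathway list. The remaining members are given by value or count.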

Additional observations from a re-analysis of the deposited data

How the results depend on the processing

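edgeR called 4 members, 7 other pathway genes and 454 genes in all. DESeq2 called 8, 13 and 1016, limma on log2(TPM + 1) 0, 0 and 60, and limma on log2(TPM + 0.1) 0, 0 and 64, with 11 members and 21 other pathway genes at an unadjusted p below 0.05 in each limma fit. With a minimum of 5 CPM in 3 libraries 7 members were called. The replicate number as a block gave 2 members (Rspo3 and Tcf7l2), 7 other pathway genes and 331 genes. Same-numbered libraries deviated together by r = 0.0744, 0.0349 and -0.055 across genes, so the numbers were not read as pairs. With single libraries left out the counts ranged from 0 to 7 members, from 0 to 9 other pathway genes and from 116 to 645 genes. RLE scaling and no filter kept the 4 member calls. Of 304 alternative values for the 24 named members 2 changed sign, neither of them called: Dvl1 without Insm1 library 2 and Lgr4 without control 3, with log2 fold changes from -0.0901 to 0.026 for Dvl1 and from -1.23 to 0.19 for Lgr4 over the fits that leave out a library. Of the others, 28 lost a call, 13 gained one and 261 did neither. The cause of these differences was not tested.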

Other observations

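The order of the members by abundance depended on the length used. By the deposited TPM, whose length is the span of the gene with its introns, the frizzled genes Fzd1, Fzd2 and Fzd8 ranked 1, 2 and 3 of the 45 tested members, with means of 416, 368 and 241 TPM over the 6 libraries, and Sfrp1 and Wnt7b ranked 4 and 6 at 133 and 82.2 TPM. Per exon length Sfrp1 ranked 1 and Wnt7b 2, at 133 and 89.4 CPM per kb, and Fzd1, Fzd2 and Fzd8 ranked 3, 4 and 7, at 47.8, 42.3 and 15.4 CPM per kb. For Fzd1 the span and the exons are both 4197 bases, while Wnt7b has 4898 bases of exon in a span of 47037 bases. The fold changes from counts use no length. Those on log2(TPM + pseudocount) depend on it for genes of low TPM: Tcf7l2 was at -0.41 with 1 added and at -0.70 with 0.1 added, and Rspo3 at -1.09 and -1.78.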
